A study of Homo sapiens with 36 samples.

Results

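The genes described here were 58 genes of human chromosome 13, from ZMYM5 near the start of its long arm to TFDP1 near its end, chosen by position and not by how each changed. Chromosome 13 was looked at because its genes lay lower in U373cc3 than in U373neo without UV, so the untreated values below chose the chromosome and are given as a description without a test. A probe counted as a member when its platform symbol, or an older name of the gene, was in the list. The array carried a probe for 57 of the 58 genes, MTIF3 being the exception. For 10 of them (CRYL1, IFT88, LATS2, PARP4, RNF6, LCP1, RCBTB1, LMO7, FARP1 and IRS2) the deposited values were blank in every array, which left 47 members with values in untreated cells and 44 with values after UV, of 8741 genes with values in all. PAN3, TSC22D1 and DOCK9 had values in untreated cells only.

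RNA came from U373, an established human glioblastoma cell line that lacks CC3 (HTATIP2, also called TIP30). U373neo is a clone of it that carries the empty vector, and U373cc3 is a clone that constitutively expresses CC3. Each clone was profiled untreated and 2 h after UV irradiation, which the sample labels give as 20 J/m2 and the methods of the study put lower. The 4 groups had 3 biological replicates each, and the RNA of each replicate was hybridized to 3 single-colour arrays, giving 9 arrays per group. Only 1 clone stood for each state of CC3, so the error terms below hold the variation within a clone only, and an effect of CC3 cannot be told apart from other differences between the clones. The probe for HTATIP2 itself was blank, so the labels could not be checked on the transgene. Only 1 of 10 astrocyte and glioma markers had values, which was too few to check the labelled cell type. Values were also present for 3 of 4 neuron markers and 1 of 5 leukocyte markers, and for no epithelial or melanocyte marker.

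The list holds genes of unlike function that share an address. Several are textbook tumour suppressors or growth regulators: RB1 encodes the retinoblastoma protein, which restrains E2F transcription factors, TFDP1 encodes the partner with which E2F binds DNA, FOXO1 is a forkhead factor held out of the nucleus by insulin and AKT signalling, and ING1 binds methylated histone H3. Others are subunits of assemblies encoded mainly on other chromosomes, such as INTS6 of Integrator, EXOSC8 and DIS3 of the RNA exosome, COG3 of the Golgi tethering complex and PCCA of the mitochondrial propionyl-CoA carboxylase. UV light blocks transcribing RNA polymerase at DNA lesions, and long or short-lived transcripts are the ones classically lost in the hours after exposure.

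All values are fluorescence intensities, quantile normalized by the authors before deposit, and the untreated arrays had been treated apart from the UV arrays (median intensity per array 895 to 896 and 746 to 748). The clones were therefore compared within a treatment on the deposited values, and changes with UV on values of all arrays normalized together. Technical arrays of a replicate correlated at 0.979 to 0.996, replicates of a group at 0.970 to 0.996 and arrays of different groups at 0.918 to 0.977. Differences are on the log2 scale, where -1 is a 2-fold fall, and each is given ± the standard error of the model (n = 3 replicates per group). The probe with the highest mean stands for a gene with several probes (SAP18, HMGB1, TPT1, RAP2A and TFDP1). Levels of different genes are not set against each other, because a probe's brightness also depends on its sequence.

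In untreated cells the members lay lower in U373cc3 almost throughout. The difference was below 0 for 44 of the 47 measured members, against 46.3% of all 8425 genes measured. All 3 replicates of U373cc3 lay under all 3 of U373neo for 42 members (22.9% of all genes did so), and above them for 2 members, ELF1 and SPRY2 (28.3% of all genes). The median member stood at 58.8% of its level in U373neo, a log2 difference of -0.77, while the median of all genes was 0.029. The median log2 intensity of the members varied between untreated replicates by 0.056 (SD), which is a spread of levels and not of that difference. The central members of the list lay close together, with quartiles of -1.01 and -0.63. Of the 47 members, 36 were lower by at least 1.5-fold and 13 by at least 2-fold, against 650 and 153 of all 8425 genes. RNA was taken from whole cultures, in which fewer cells with a transcript and less of it per cell cannot be told apart.

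**Figure D1:**
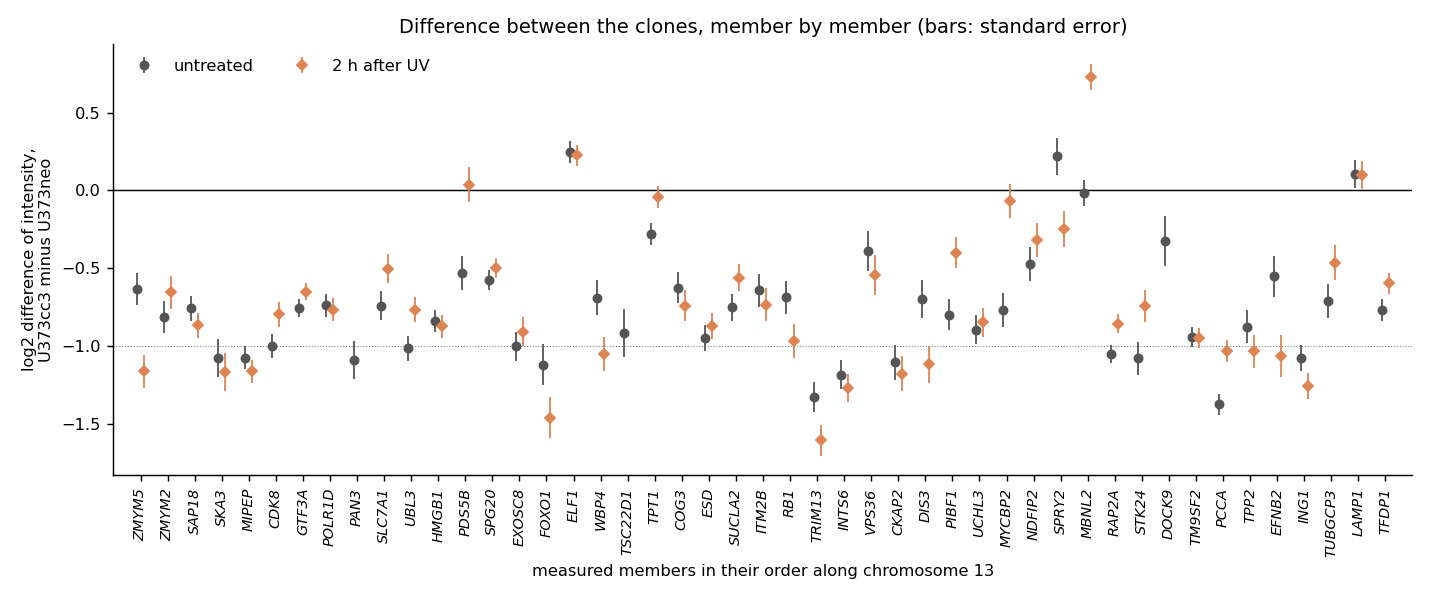
Log2 difference of intensity between the clones (U373cc3 minus U373neo, vertical axis) for the 47 members measured in untreated cells, in their order along chromosome 13, untreated (circles) and 2 h after UV (diamonds), with standard errors as bars and a dotted line at a 2-fold fall. Most members lie between -1.37 and -0.28 without UV, and ELF1, SPRY2, MBNL2 and LAMP1 lie near or above 0.

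PCCA, the biotin-carrying subunit of propionyl-CoA carboxylase, showed the lowest relative level. Its intensities were 4692, 4672 and 4794 in the 3 replicates of U373neo and 1772, 1802 and 1889.7 in those of U373cc3. The replicates of each clone lay within a narrow band and far from those of the other clone, and U373cc3 stood at 38.6% of U373neo, a log2 difference of -1.37 ± 0.068. TRIM13, a ubiquitin ligase of the endoplasmic reticulum from the RB1 neighbourhood, gave 2707, 2949 and 2676 in U373neo and 1108, 1071 and 1141 in U373cc3. Its level in U373cc3 was 39.9% of that in U373neo, again with no overlap.

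INTS6, a subunit of Integrator, which cleaves nascent transcripts such as small nuclear RNAs, had intensities of 2740.3, 2448 and 2309.9 in U373neo and 1141, 1002 and 1158 in U373cc3 (44.0%). FOXO1 gave 9455, 7059 and 8674 against 3638, 3796 and 4079 (46.0%). For FOXO1 the replicates of U373neo were spread more widely than those of U373cc3, yet the lowest of them was above the highest of U373cc3. CKAP2, a spindle protein of dividing cells, showed 4774, 3609.8 and 4931 against 1890.1, 2257 and 2001 (46.5%), with the second replicate of U373neo lower than the others. PAN3, a subunit of the deadenylase that shortens poly(A) tails, showed 233, 289.6 and 303 against 122, 133 and 131 (47.0%). In all 6 genes the clones were separated by more than the spread within either.

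The 4 members at the other end of the list did not share the lower level. ELF1, an ETS-family transcription factor, gave 13846, 12569 and 13569 in U373neo and 15602, 16818 and 15062 in U373cc3, and its log2 difference of 0.25 ± 0.069 was the highest of the list. The neighbours of ELF1 among measured genes, MRPS31 and WBP4, stood at -0.71 and -0.69. SPRY2, a feedback inhibitor of receptor tyrosine kinase signalling, gave 200.0, 177 and 177 against 212, 224 and 209 (0.22 ± 0.12), also without overlap but by a smaller margin. LAMP1, a main glycoprotein of the lysosomal membrane, gave 14728, 13447 and 12698 against 16305, 13378 and 14391, and MBNL2, a muscleblind splicing regulator, gave 475, 445 and 494 against 437, 511 and 449. The replicates of the clones overlapped for LAMP1 (0.11 ± 0.089) and for MBNL2 (-0.019 ± 0.084). The measured genes on either side of LAMP1, CUL4A and ADPRHL1, stood at -0.44 and -0.34, and those on either side of MBNL2, DNAJC3 and RAP2A, at -0.22 and -1.05.

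**Figure D2:**
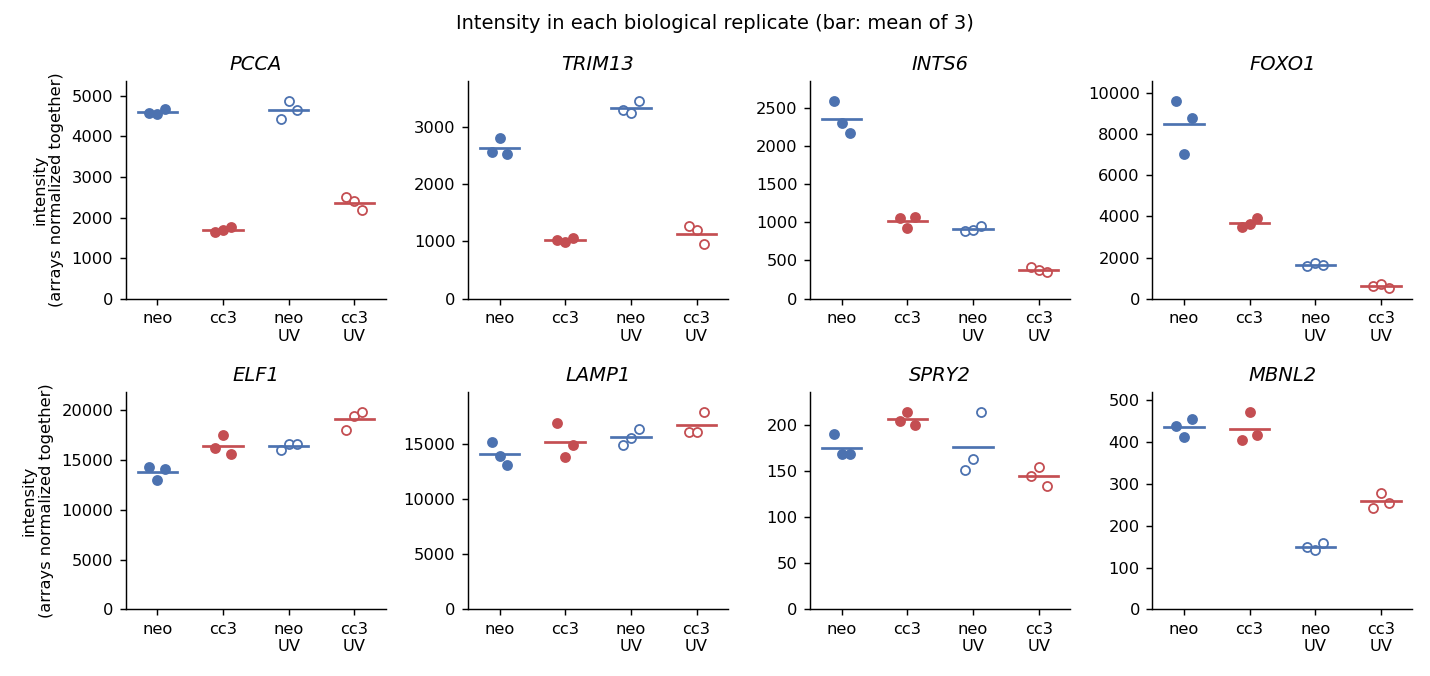
Intensity (vertical axis, all arrays normalized together, starting at 0) of 8 members in each biological replicate (points) with the mean of 3 replicates (bars), for U373neo and U373cc3 untreated (filled) and after UV (open). PCCA, TRIM13, INTS6 and FOXO1 are lower in U373cc3 in both treatments, ELF1 is higher in both, and MBNL2 differs between the clones after UV but not before.

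The lower level ran across functions. Of 14 members that act on transcription, chromatin or DNA, 13 were lower without overlap, with ELF1 as the exception and a median of -0.76. This group holds RB1 and TFDP1, the Mediator kinase CDK8, the cohesin regulator PDS5B, the chromatin architectural protein HMGB1, the repressor subunit SAP18, and GTF3A and POLR1D, which serve the polymerases that make ribosomal RNA. Of 6 members of RNA processing and decay, 5 were lower without overlap (median -0.85, MBNL2 the exception). All 4 spindle and centrosome members, SKA3, CKAP2, TUBGCP3 and PIBF1, were lower without overlap, between -1.11 and -0.71. So were all 7 members of ubiquitin pathways and peptidases, between -1.33 (TRIM13) and -0.47 (NDFIP2, an adaptor of NEDD4-type ligases), and 6 of 7 members of membranes and transport, with LAMP1 as the exception. Among 5 signalling genes, the kinase STK24, the small GTPase RAP2A and the ephrin EFNB2 were lower without overlap, DOCK9, an activator of CDC42, overlapped, and SPRY2 was higher.

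RB1 was a dim probe in these arrays, with 232, 211 and 213 in U373neo and 134, 139 and 135 in U373cc3. The replicates nevertheless did not overlap, and U373cc3 stood at 62.2% of U373neo (-0.69 ± 0.11). HMGB1 had 4 probes with values, and its brightest gave 31829.9, 35173 and 37964 against 19104, 20419 and 19068 (55.9%). The other HMGB1 probes differed by -0.85, -1.01 and -1.27, so that all 4 pointed the same way with unequal sizes. The gene table names 50 pseudogenes after HMGB1, 14 after TPT1 and 6 after GTF3A, and signal from such copies cannot be told apart from that of the gene. TPT1, whose probe lay close to the upper limit of the scanner (intensities up to 65321 without UV), differed by -0.28 and GTF3A by -0.76, and differences of probes this bright are understated.

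The listed members were not set apart from the rest of their chromosome. The 89 other genes of chromosome 13 with untreated values had a median of -0.74 and 86 of them were below 0. Over all 136 measured genes of the chromosome, 130 were below 0, and the 6 above it (IL17D, LHFPL6, ELF1, KLHL1, SPRY2 and LAMP1) were scattered, with the longest unbroken run below 0 covering 36 genes from WBP4 to TDRD3. The members of the list from ZMYM2 to EXOSC8 had a median of -0.83 (14 measured), the next ones in the list from SPG20 (now named SPART) to UCHL3 -0.72 (16 measured), and the last from DIS3 to TFDP1 -0.77 (17 measured). Medians of 21 other chromosomes lay between -0.057 and 0.098, and chromosome 11 lay at -0.47. Across the 47 members, which share the same arrays, gene length went with the untreated difference at Pearson's r = -0.12 and Spearman's rho = -0.057. For mean intensity the values were r = -0.029 and rho = -0.22.

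**Figure D3:**
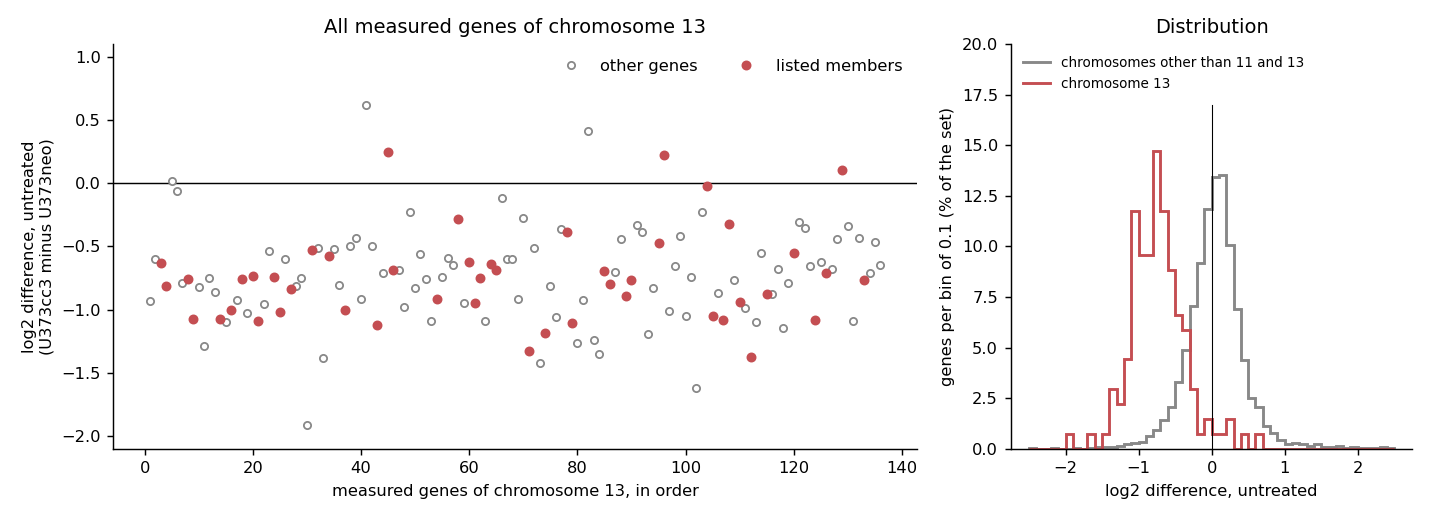
Left, log2 difference between the untreated clones (vertical axis) for the 136 measured genes of chromosome 13 in order (horizontal axis), with the listed members filled and other genes open. Right, the share of genes per bin of the log2 difference for chromosome 13 and for chromosomes other than 11 and 13, with 130 of the 136 genes of chromosome 13 below 0.

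By their serial numbers the arrays formed 3 ranges, shared unequally by the clones, with 4, 4 and 1 arrays of untreated U373cc3 and 5, 1 and 3 of untreated U373neo. Within each range alone the median member differed by -0.80, -0.79 and -0.73, and 44, 43 and 44 of the 47 members were below 0. The difference within each range was close to that over all arrays. The second range held only 1 replicate of U373neo, and the third only 1 replicate of each clone.

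The promoters of the members were richer in GC than windows of all gene types, and other measured genes were not compared. RefSeq promoter windows of 250 bases before the start site (GRCh38.p14) were found for 44 of the 47 measured members, 67 windows in all. Their median GC content was 67.2% and their median number of CpG dinucleotides 23, against 58.0% and 11 over 35116 windows of all gene types. The 892 windows of chromosome 13, also of all gene types, had 52.8% and 8, and 32.1% of them held the GC box GGGCGG. Windows were searched on both strands for short motifs. The GC box GGGCGG was found in 62.7% of the members' windows and in 42.6% of all windows, the CCAAT box CCAAT in 34.3% and 32.0%, the TATA box TATAAA in 10.4% and 10.7%, and the E-box CACGTG in 13.4% and 6.34%. The ETS motif CCGGAAG was found in 10.4% and 8.52%, the AP-1 motif TGACTCA in 4.48% and 4.20%, and the CRE core TGACGT in 7.46% and 7.10%. No test was run on these shares, and a match of letters is not evidence of a bound factor.

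Windows are printed for 6 members that the results turn on: PCCA and INTS6 as the members with large differences between the clones, LAMP1 as a member without one, and FOXO1, CDK8 and MIPEP for their changes with UV described further on. Each is written 5′ to 3′ on the strand of the gene, up to the base before the start site, and capitals mark the motifs searched.
PCCA, chr13:100088843-100089092, plus strand: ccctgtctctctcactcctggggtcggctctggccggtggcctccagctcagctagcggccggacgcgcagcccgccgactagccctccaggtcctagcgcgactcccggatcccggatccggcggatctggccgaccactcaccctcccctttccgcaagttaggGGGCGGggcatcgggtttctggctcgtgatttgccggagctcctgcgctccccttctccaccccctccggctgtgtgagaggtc
INTS6, chr13:51453037-51453286, minus strand: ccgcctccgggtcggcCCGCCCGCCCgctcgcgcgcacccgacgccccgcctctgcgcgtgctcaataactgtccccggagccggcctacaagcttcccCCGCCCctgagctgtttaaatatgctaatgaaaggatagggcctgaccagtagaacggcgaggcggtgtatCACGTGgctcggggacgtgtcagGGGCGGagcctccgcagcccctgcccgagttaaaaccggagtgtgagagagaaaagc
LAMP1, chr13:113296989-113297238, plus strand: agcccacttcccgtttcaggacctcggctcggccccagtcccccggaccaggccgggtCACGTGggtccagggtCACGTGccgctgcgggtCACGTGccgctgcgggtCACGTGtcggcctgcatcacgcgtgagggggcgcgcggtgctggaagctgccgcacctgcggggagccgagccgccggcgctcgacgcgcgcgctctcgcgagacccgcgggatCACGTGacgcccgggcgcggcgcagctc
FOXO1, chr13:40666642-40666891, minus strand: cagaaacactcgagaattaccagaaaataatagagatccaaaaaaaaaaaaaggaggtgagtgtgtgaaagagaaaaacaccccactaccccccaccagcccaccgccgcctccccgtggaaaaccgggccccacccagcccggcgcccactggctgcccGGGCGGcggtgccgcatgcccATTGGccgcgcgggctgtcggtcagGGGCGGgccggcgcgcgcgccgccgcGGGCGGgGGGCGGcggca
CDK8, chr13:26253879-26254128, plus strand: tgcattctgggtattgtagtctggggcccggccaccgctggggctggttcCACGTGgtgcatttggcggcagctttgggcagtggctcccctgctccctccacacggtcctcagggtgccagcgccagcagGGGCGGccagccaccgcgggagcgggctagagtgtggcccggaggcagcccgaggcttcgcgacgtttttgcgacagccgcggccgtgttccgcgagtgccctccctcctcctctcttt
MIPEP, chr13:23889401-23889650, minus strand: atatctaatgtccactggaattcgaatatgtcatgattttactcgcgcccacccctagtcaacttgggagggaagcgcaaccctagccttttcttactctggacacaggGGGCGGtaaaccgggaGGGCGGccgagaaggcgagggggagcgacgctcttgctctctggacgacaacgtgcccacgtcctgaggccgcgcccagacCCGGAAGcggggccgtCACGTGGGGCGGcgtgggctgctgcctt
The window of LAMP1 carried 5 E-boxes and no GC box. PCCA carried 1 GC box, INTS6 carried 4 GC boxes and 1 E-box, FOXO1 carried 4 GC boxes, CDK8 carried 1 GC box and 1 E-box, and in MIPEP an E-box ran straight into a GC box without sharing a base, beside 2 further GC boxes and an ETS motif. The 2 overlapping GC boxes at the left of the INTS6 window read on the opposite strand.

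After UV the clones were compared on separate samples and arrays, so this comparison was tested. It answers whether the members were also lower in U373cc3 among irradiated cells. The samples came from the same 2 clones, and the model estimated the spread from the untreated replicates as well. Of 44 members measured after UV, 37 were lower in U373cc3 at an adjusted p under 0.05 (limma, Benjamini-Hochberg over all probes), where 21.6% of all 8302 genes were called lower. The members called higher were ELF1 and MBNL2, against 19.5% of all genes. The difference was below 0 for 40 of the 44 members, against 49.3% of all genes. The median member stood at 58.2% of its level in U373neo (log2 difference -0.78), from -1.60 for TRIM13 to 0.73 for MBNL2. The replicates did not overlap for 37 members in the lower direction and 2 in the higher, against 27.7% and 26.9% of all genes.

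TRIM13 now showed the widest gap of the list. Its intensities were 3138, 3099 and 3307 in irradiated U373neo and 1172, 1114 and 875 in irradiated U373cc3. U373cc3 thus stood at 32.9% of U373neo, a log2 difference of -1.60 ± 0.099 (limma, adjusted p = 3.66e-07). FOXO1 gave 1478, 1616 and 1547 against 559, 675 and 469, or 36.3% (-1.46 ± 0.13, adjusted p = 6.06e-06). INTS6 at 41.5% and ING1 at 41.9% of U373neo were also lower by over 2-fold, with 817, 823 and 879.7 against 381, 349 and 318 for INTS6 and 771, 778 and 896 against 347, 364 and 312 for ING1. In none of these 4 genes did the replicates of the clones overlap.

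PCCA was lower again, with 4313, 4769 and 4528 in irradiated U373neo and 2352, 2255 and 2053 in irradiated U373cc3 (-1.03 ± 0.068, adjusted p = 6.11e-07). RB1 gave 161, 183 and 159 against 97.7, 90.6 and 71.1 (-0.97 ± 0.11, adjusted p = 2.95e-05), all under 200 units and without overlap. HMGB1 gave 41194, 41768 and 42329 against 23376, 21797 and 23295 (-0.87 ± 0.073, adjusted p = 3.39e-06). Each of these was called lower by the test, as were MIPEP (-1.16), CKAP2 (-1.18), CDK8 (-0.80), COG3 (-0.74), EXOSC8 (-0.91), DIS3 (-1.12), SAP18 (-0.87) and ZMYM5 (-1.16).

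The members not called after UV were PDS5B, TPT1, MYCBP2, SPRY2 and LAMP1, of which TPT1 is named here because of this result. LAMP1 gave 15484, 16066 and 16994 against 16691, 16655 and 18636 (0.098 ± 0.089), much as before UV. ELF1 stayed higher, with 16547, 17142 and 17145 against 18618, 20197 and 20623 (0.22 ± 0.069, adjusted p = 0.0233), a call lost in 5 of 18 alternatives. MBNL2 was higher in U373cc3 by 1.66-fold after UV, with 141, 141 and 156 against 229, 263 and 236 (0.73 ± 0.084, adjusted p = 3.91e-05), although its untreated replicates had overlapped. By function, 11 of 13 measured members acting on transcription, chromatin or DNA were called lower, as were 4 of 5 of RNA processing, all 4 of spindle and centrosome, 6 of 7 of ubiquitin pathways and peptidases, 6 of 7 of membranes and transport, and 3 of 4 signalling genes. The 86 other genes of chromosome 13 measured after UV held 70 called lower and 1 called higher.

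Across the 44 members the difference after UV followed the untreated difference, with Pearson's r of 0.78 and Spearman's rho of 0.69. The points share the 2 clones but no arrays, and over all 7986 genes measured in both treatments r was 0.76. After UV, 9 arrays of U373neo came from 1 serial range and those of U373cc3 from that range (3 arrays) and another (6 arrays). The 3 arrays of U373cc3 in the shared range were technical arrays of 1 replicate, so a comparison within that range has no replication in this clone. There the median member differed by -0.87 and 41 of 44 members were below 0, which was no smaller than over all arrays.

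UV lowered more members than it raised, in both clones. In U373neo 21 of the 44 members fell and 7 rose at an adjusted p under 0.05, while 30.1% of all 7986 genes fell and 32.2% rose. In U373cc3 18 members fell and 6 rose, while 30.0% of all genes fell and 28.0% rose. The median member changed by -0.15 in U373neo and by -0.11 in U373cc3, with medians over all genes of 0.039 and 0.021. These counts depend on how the treatments are scaled to each other: with arrays centred on their medians, 17 members fell and 15 rose in U373neo and 18 fell and 14 rose in U373cc3, and on the deposited values 24 fell and 9 rose in U373neo and 24 fell and 8 rose in U373cc3. The median over all probes was 0.067 and 0.061 in the clones on values normalized together, 0.19 and 0.20 with centring, and -0.045 and -0.039 as deposited, and the UV changes are relative to it. The large falls named next were called on all 3 scalings.

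FOXO1 fell furthest in both clones. On values normalized together it went from 9619, 7056 and 8784 to 1586, 1733 and 1659.7 in U373neo and from 3488, 3649 and 3941 to 608, 734 and 510.0 in U373cc3. The irradiated replicates stood at 19.7% of the untreated ones in U373neo (-2.34 ± 0.13, adjusted p = 9.37e-08) and at 16.5% in U373cc3 (-2.60 ± 0.13, adjusted p = 7.6e-08). Its printed window is the 1 of the 6 with a CCAAT box, written there as its reverse complement. CDK8, the kinase of a module that joins Mediator reversibly, fell from 1402, 1659 and 1605 to 505, 542 and 536 in U373neo and from 734, 794 and 771 to 308, 310.5 and 280.1 in U373cc3. That left 34.0% and 39.0% of the untreated level (adjusted p = 3.6e-08 and 1.58e-07).

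PDS5B, which regulates how cohesin holds to chromosomes, fell from 557, 623 and 685 to 165, 198 and 162 in U373neo and from 409, 443 and 446 to 186, 193 and 159.5 in U373cc3. The irradiated clones met at about the same level although the untreated ones had differed. INTS6 fell from 2587, 2299 and 2167 to 889, 895 and 956 in U373neo and from 1054, 923 and 1070.0 to 411, 375 and 343 in U373cc3, leaving 38.9% and 37.1%. COG3, a subunit of the conserved oligomeric Golgi complex, fell from 392, 373.4 and 386 to 152, 174 and 163 in U373neo and from 245, 268 and 252 to 92.9, 108 and 86 in U373cc3. For INTS6 and COG3 the fall was alike in both clones, -1.36 and -1.43 for INTS6 and -1.24 and -1.42 for COG3, and the tests of the difference gave adjusted p = 0.774 and 0.382 (limma), with standard errors of the difference of 0.13 and 0.12.

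The members that rose did so by less. MIPEP, a peptidase that trims proteins imported into mitochondria, rose from 2295, 2368 and 2426 to 2964, 3177 and 3285 in U373neo and from 1145, 1124 and 1042 to 1402, 1345 and 1569.6 in U373cc3, 1.33-fold and 1.30-fold (adjusted p = 0.000567 and 0.00121). ING1, the reader of methylated histone H3 that is studied as a growth inhibitor, rose 1.38-fold in U373neo, from 688, 627 and 607 to 839, 847 and 972, and 1.19-fold in U373cc3, from 317, 300.3 and 310.3 to 373.4, 392 and 338. Neither gene's groups overlapped. The rise of ING1 in U373cc3 lost its call in 6 of 17 alternative analyses and was 0.044 on the deposited values (limma, adjusted p = 0.673). That of MIPEP in U373cc3 lost its call in 1 of 18, being 0.16 on the deposited values (limma, adjusted p = 0.0799). DIS3, the catalytic exoribonuclease of the exosome, rose in U373neo from 281, 239 and 308 to 395, 423 and 406 (0.57 ± 0.11, adjusted p = 0.00108), and gave 158, 196 and 179 and 174, 206 and 164 in U373cc3, which was not called (0.033 ± 0.11). EXOSC8, a ring subunit of the same complex, rose in U373cc3 from 5999, 6388 and 6955 to 7972, 8407 and 8338 (0.36 ± 0.097, adjusted p = 0.00846) and gave 11304, 14494 and 14548 and 15450.0, 15062 and 14684 in U373neo, not called. For neither of these exosome genes was the UV change shown to differ between the clones (adjusted p = 0.0727 and 0.432).

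SAP18, a subunit of the SIN3 corepressor and of a complex on spliced messages, rose at its brighter probe from 14829.7, 15913 and 15678 to 19414, 18679 and 18639 in U373neo and from 9376, 8308 and 9266 to 9744, 10245 and 11674 in U373cc3 (0.29 and 0.23), of which the rise in U373cc3 lost its call in 4 of 18 alternatives. Its other probe rose by 1.13 and 1.08 on the log2 scale, from 3316, 2699.5 and 3424 to 6227, 6882 and 7455 in U373neo, so the probes gave the same direction but sizes that disagreed. TRIM13 rose in U373neo from 2555, 2796 and 2524 to 3286, 3247 and 3453 (0.34 ± 0.097, adjusted p = 0.00921) and went from 1022, 988 and 1054 to 1261, 1201 and 950.3 in U373cc3, not called. Its rise in U373neo lost its call in 1 of 18 alternatives, being 0.20 on the deposited values (limma, adjusted p = 0.108). RB1 fell in U373neo from 219, 199.7 and 201 to 172, 189 and 162 (-0.25 ± 0.099, adjusted p = 0.0496) and in U373cc3 from 135, 139 and 133 to 94.7, 89.5 and 72 (-0.68 ± 0.099, adjusted p = 0.000149). The fall of RB1 in U373neo was marginal and lost its call in 10 of 17 alternative analyses. The brightest probe of HMGB1 moved by 0.068 and 0.10 and was not called in either clone (limma, adjusted p = 0.459 and 0.256). Its irradiated replicates lay at 38536, 39042 and 39543 in U373neo and 22332, 20903 and 22256 in U373cc3. This holds for that probe only, and the UV changes of the other HMGB1 probes are not given here.

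**Figure D4:**
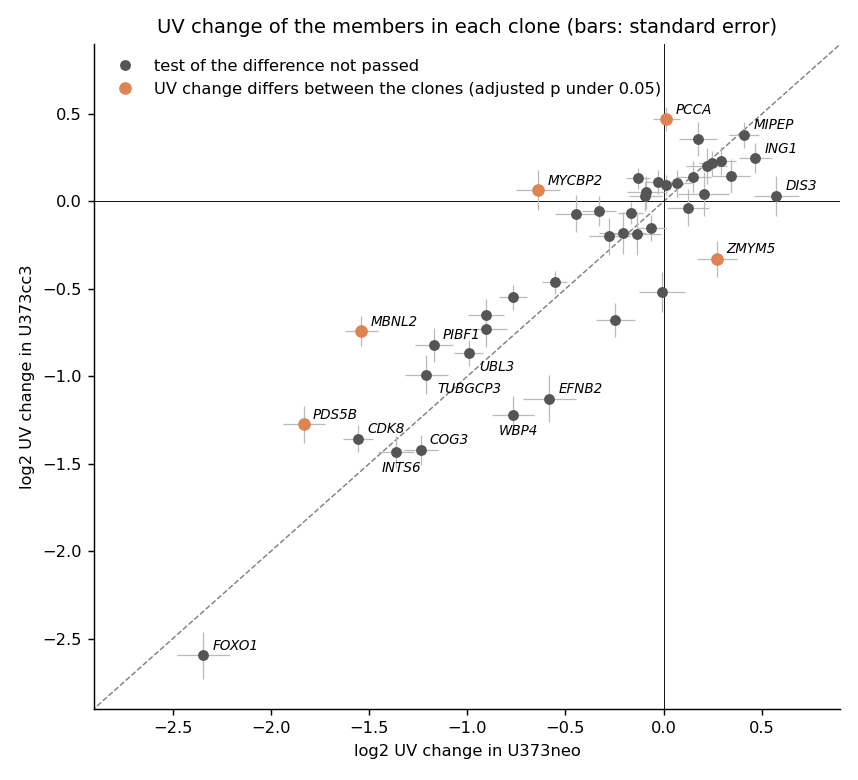
Log2 change with UV of the 44 members measured in both treatments, in U373neo (horizontal axis) and in U373cc3 (vertical axis), with standard errors as bars and a dashed line of equal change. FOXO1 lies lowest in both clones, and the 5 members whose change differed between the clones at an adjusted p under 0.05 (ZMYM5, PDS5B, MYCBP2, MBNL2 and PCCA) are drawn in orange.

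The falls were spread over the functional groups, on which no test was run, and the shares of all genes that fell (30.1% in U373neo and 30.0% in U373cc3) apply beside each count. Of 13 measured members acting on transcription, chromatin or DNA, 6 fell and 4 rose in U373neo and 7 fell and 3 rose in U373cc3. Of 5 of RNA processing, 3 fell in each clone (INTS6, MBNL2 and WBP4, a spliceosomal protein) and 1 rose in each. Among spindle and centrosome members TUBGCP3, of the gamma-tubulin ring complex, and PIBF1, of centriolar satellites, fell in both clones, while SKA3 and CKAP2 were not called in either. Among 7 members of ubiquitin pathways and peptidases 3 fell and 2 rose in U373neo, and 1 fell (UBL3, a ubiquitin-like protein anchored in membranes) and 1 rose (MIPEP) in U373cc3. Of 7 members of membranes and transport, 4 fell in U373neo and 3 in U373cc3, and of 4 signalling genes 2 fell in each. Of the 4 remaining members, which are 3 genes of metabolism and TPT1, 1 fell in U373neo and PCCA rose in U373cc3. Across the 44 members the changes of the clones ran together (r = 0.89, rho = 0.86), as they did over all 7986 genes (r = 0.84), and the points share arrays within each clone.

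Longer members tended to fall more. Against the log2 length of the gene, the change of the 44 members had r = -0.51 in U373neo and r = -0.31 in U373cc3, close to the values over 7950 genes (r = -0.52 and -0.38). The 15 members of 100 kb or more had median changes of -0.90 in U373neo and -0.73 in U373cc3, and 11 and 9 of them fell by the test. The 29 shorter members had medians of -0.092 and -0.057, with 10 and 9 fallen. Over genes of all lengths 30.1% and 30.0% fell. The shares called among all genes of each length class were not computed, so these counts are not a result about the members. All genes of 100 kb or more had medians of -0.42 and -0.22, and shorter ones 0.10 and 0.062. Members against this order were PCCA, the longest of the list, which did not fall in either clone, and MIPEP and ELF1, which are over 100 kb and rose in both. Intensity moved along as well. The mean intensity of a member went with its UV change at r = 0.34 in U373neo and 0.46 in U373cc3, and its part in the relation to length was not tested.

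**Figure D5:**
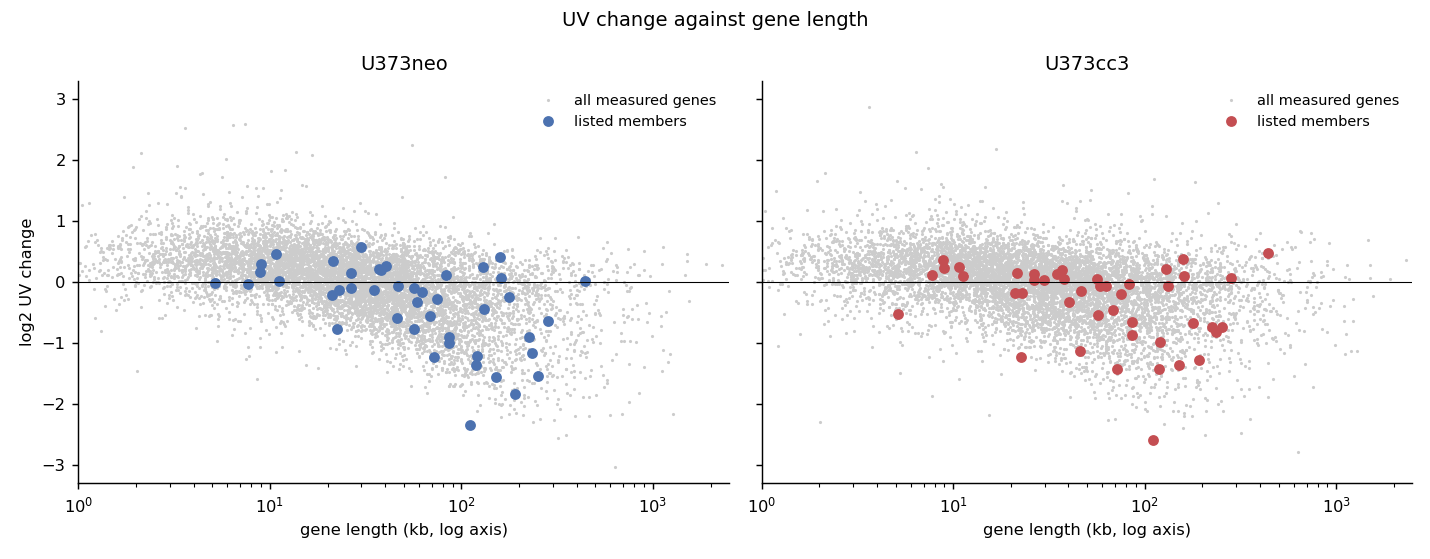
Log2 change with UV (vertical axis) against gene length in kb (horizontal, log axis) in U373neo (left) and U373cc3 (right), for the listed members (large points) and all measured genes (small points). Members over 100 kb lie mostly below 0, with a median of -0.90 in U373neo and -0.73 in U373cc3.

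In its response to UV, U373cc3 differed from U373neo for 5 of the 44 members at an adjusted p under 0.05 (limma, difference of the UV changes). ZMYM5 was lower in U373cc3 (4.19% of all 7986 genes were called so), and PDS5B, MYCBP2, MBNL2 and PCCA were higher (2.37% of all genes). The members called higher are all over 100 kb. Across the 44 members the difference of the UV changes went with log2 gene length (r = 0.47). All genes of 100 kb or more also had a smaller median fall in U373cc3 (-0.22) than in U373neo (-0.42). The part of length in these calls was not tested. The other 39 were not called, which does not show that their changes were equal.

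MBNL2, which steers alternative splicing and which had the largest of these differences, went from 439, 411 and 455 to 149, 141 and 159 in U373neo and from 405, 472 and 416 to 241, 278 and 255 in U373cc3. The untreated clones overlapped, the irradiated ones did not, and the fall left 34.4% in U373neo and 59.9% in U373cc3, a difference of 0.80 ± 0.12 (adjusted p = 0.00648). It kept its call in all 21 alternative analyses, while the others of the 5 lost theirs in 5 to 14 of them. Its paralog MBNL1 on chromosome 3 moved likewise, by -1.44 in U373neo and -0.97 in U373cc3 (difference 0.47, adjusted p = 0.0234).

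MYCBP2, a giant ubiquitin ligase known from axon growth, fell in U373neo from 1166, 853 and 945 to 546, 669 and 683 and gave 572, 566 and 583 and 585, 609 and 605 in U373cc3, so that the clones, apart without UV, met after it (difference 0.70 ± 0.16, adjusted p = 0.0283). PDS5B showed the same convergence, with a fall of -1.83 in U373neo and -1.27 in U373cc3 (difference 0.56 ± 0.15, adjusted p = 0.0499), just inside the threshold. PDS5A, its paralog on chromosome 4, changed by -0.74 and -0.20 (difference 0.54, adjusted p = 0.0257). PCCA rose in U373cc3 from 1653, 1682 and 1764 to 2493, 2396 and 2188 (0.47 ± 0.068, adjusted p = 0.00013) and stood at 4576, 4551 and 4677 and 4431, 4873 and 4642 in U373neo, a change of 0.014 that was not called.

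ZMYM5, a zinc finger protein of the MYM type, was called in opposite directions. It rose in U373neo from 453, 442 and 414 to 462, 550.3 and 573 (0.27 ± 0.10, adjusted p = 0.0379) and fell in U373cc3 from 272, 276 and 311 to 238, 246 and 202 (-0.33 ± 0.10, adjusted p = 0.017). The rise lost its call in 8 of 17 alternative analyses, being 0.034 on the deposited values (limma, adjusted p = 0.809), and the fall in 3 of 17. The difference was -0.60 ± 0.14 (adjusted p = 0.0351). SPRY2 fell in U373cc3 only by the test, from 204, 215 and 200.5 to 145, 154 and 135 (adjusted p = 0.00262), with 191, 169 and 169 and 152, 164 and 214 in U373neo, and its difference between the clones was not called (adjusted p = 0.0857). ELF1 rose alike in both clones, by 0.25 and 0.22 (adjusted p = 0.00905 and 0.0192), from 14322, 12994 and 14045 to 15967, 16541 and 16543 in U373neo and from 16159, 17449.9 and 15607 to 17951, 19411 and 19836 in U373cc3, where 4 of 18 alternatives lost the call.

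Paralogs of the members and other subunits of their complexes were listed with earlier results of these data known. COG6, a subunit of the complex of COG3 that is itself encoded on chromosome 13 (-0.49 without UV), was left out, and the other partners lay on other chromosomes. Of 102 measured in untreated cells, 16 were called lower and 22 higher in U373cc3 (18.0% and 22.0% of all genes), with a median of 0.055. After UV 21 of 103 were lower and 26 higher (21.6% and 19.5% of all genes), with a median of -0.0016. PCCB, the other subunit of the carboxylase to which PCCA belongs, differed by 0.054 without UV and -0.03 after it. PAN2, the catalytic partner of PAN3, differed by 0.24 (adjusted p = 0.0822) and FOXO3, the relative of FOXO1, by 0.68 (adjusted p = 0.00469). RBL1, of the RB1 family, and HMGB2, of the HMGB1 family, were lower by less than the members they resemble, at -0.36 and -0.44 (adjusted p = 0.00357 and 0.000624). Other partners, named after their values were seen, differed by more than RBL1 and HMGB2 did. E2F3, which pairs with TFDP1 and is bound by RB1, was at -0.80 (limma, adjusted p = 4.53e-05). SUCLG2, a paralog of SUCLA2 in succinyl-CoA metabolism, was at -0.61, and the cohesin subunit RAD21 at -0.48 (limma, adjusted p = 0.000141 and 0.000813). SUCLG1, listed for the complex of SUCLA2, was at 0.12 (limma, adjusted p = 0.461). INTS5, of the complex of INTS6, was at -0.67 and lies on chromosome 11, where the median was -0.47. ELF4, an X-linked relative of ELF1, was lower by 1.64 on the log2 scale where ELF1 was higher. Partners with large differences the other way, also named after their values were seen, included DOCK11 of the DOCK9 family at 2.10. EFNB1 of the EFNB2 family was at 0.80 and POLR1A of the complex of POLR1D at 0.73 (limma, adjusted p = 1.52e-08, 7.43e-05 and 0.000305 for these genes in turn). With UV 48 of 100 partners fell and 21 rose in U373neo (30.1% and 32.2% of all genes), and 42 fell and 15 rose in U373cc3 (30.0% and 28.0%).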

How the data were processed

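The deposited values are linear probe intensities. According to the study's methods, amplified RNA carrying Cy5 was hybridized to Phalanx Human OneArray chips, and the authors quantile normalized the mean intensity of each probe with GeneSpring GX. Why some probes are blank, and which arrays were normalized together, is not given in the sources used here. Of 30968 probes, 13041 had values on either set of arrays, 9659 of them with 1 gene symbol from the platform annotation. Symbols, gene lengths and the order along chromosome 13 came from the RefSeq gene table of GRCh38.p14 (9615 probes matched, 1486 symbols replaced).

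Each replicate entered as the mean log2 intensity of its 3 arrays. The 12 replicates entered 1 linear model (limma 3.58.1, R 4.3.3, with moderated variances), with Benjamini-Hochberg adjustment over all probes and a threshold of 0.05. Probes with values in 1 treatment were fitted on its 6 replicates. For UV changes all arrays were given 1 common set of quantiles over the 11602 probes that both treatments measured. The procedure was tested on simulated data. P-values measure the spread between replicates of 1 clone, which were harvested in triplicate per the study's methods and called biological replicates in the labels. Neither says whether each was a separate culture. The number of arrays limits the precision.

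The members, the lists of partners and the roles were chosen with earlier results of these data known. Values in every replicate are given for the 6 members with the lowest and the 4 with the highest untreated difference, the 5 that rose and the 5 that fell most with UV in each clone, those whose UV change differed between the clones, and RB1, FOXO1, SPRY2 and HMGB1. Same-numbered replicates did not deviate together (correlations of -0.34 to 0.37), so replicate numbers were not used as pairs. Alternatives tried were other scalings, a constant of 50 added before log2, only bright probes, the mean or every probe of a gene, single arrays with and without the serial range, trend and robust options, each replicate left out, the replicate number as a block, and the methods' t-test.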

Additional observations from a re-analysis of the deposited data

Results flagged for a closer look

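The change with UV differed between the clones in 5 members by the limma test of the difference, given here as the log2 change in U373cc3 minus that in U373neo. MBNL2 differed by 0.80 (adjusted p = 0.00648), with a fall in both clones that was smaller in U373cc3. MYCBP2 differed by 0.70 (adjusted p = 0.0283), PDS5B by 0.56 (adjusted p = 0.0499) and PCCA by 0.46 (adjusted p = 0.0219). MBNL2, MYCBP2, PDS5B and PCCA are all over 100 kb, and the part of gene length was not tested. ZMYM5 differed by -0.60 (adjusted p = 0.0351), with changes of 0.27 in U373neo and -0.33 in U373cc3, of which the first lost its call in 8 of 17 alternatives (0.034 on the deposited values, adjusted p = 0.809).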

How the results depend on the processing

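The lower level of the members in U373cc3 kept its direction under every alternative run. With each replicate left out in turn the untreated median lay between -0.79 and -0.78, with 43 to 44 of 47 members below 0, and after UV 36 to 38 members were called lower and 1 to 2 higher. UV calls ran from 18 to 20 fallen and 6 to 7 risen in U373neo and from 17 to 18 fallen and 4 to 7 risen in U373cc3. Restricting the fit to bright probes left 25 members by its construction, with an untreated median of -0.90 and 23 below 0, 22 lower and 1 higher after UV, 9 fallen and 4 risen in U373neo and 6 fallen in U373cc3. With arrays centred on their medians 15 members rose in U373neo and 14 in U373cc3. The median over all probes was then 0.19 and 0.20, and its part in these counts was not tested. With every probe counted 11 and 10 rises were called, and there a gene with several probes counts more than once.

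The 5 differences of the UV change were the least stable result. Without 1 replicate, limma called 0 to 2 members lower and 1 to 4 higher. Leaving out any of the 12 replicates, except the first of untreated U373neo, moved the count of lower or of higher calls by over 1.5 times. The alternatives with 0 called lower were centring (2 higher), the deposited values (2 higher), the replicate number as a block (2 higher) and bright probes (1 higher), where 5, 5, 6 and 0 members were lower at an unadjusted p under 0.05. Taking arrays singly gave 3 lower, and adding the serial range as a term to that fit gave 4. Arrays of the first range alone held 1 replicate of irradiated U373cc3, so their counts are not given. The replicate block otherwise gave 36 lower and 2 higher after UV, 19 fallen and 6 risen in U373neo and 18 and 6 in U373cc3. The methods' t-test called 36 members lower after UV at its own threshold and 33 after Benjamini-Hochberg, and it was not run on the difference.

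For single members, these alternatives were followed only for results of named members that the main fit had called. Of those values, 846 kept direction and call, 82 lost the call and none changed sign. Results that the main fit had not called were left out, so these counts do not describe the stability of all members.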
